A study of Rattus norvegicus with 14 samples.

Results

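The sarcomere, the contractile unit of striated muscle, is held together by scaffold proteins, and the genes described here encode that scaffold and the thin filament in rat soleus. They are 36 genes chosen by symbol: 2 giant scaffold genes, 13 genes of the Z-disc, 2 of the M-band, 3 encoding proteins that bind the thick filament, 10 of the thin filament, 4 of intermediate filaments and their attachments, and 2 of protein turnover in the sarcomere. A gene was measured by the probe set with its symbol alone that had the highest mean signal. This gave a value for 35 of the 36 genes, and all 35 passed the filter on dim genes, out of 11062 genes tested. Actc1, the cardiac actin that developing skeletal muscle also makes, was represented only by probe sets shared with Acta2.

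Total RNA of the whole soleus of 12 male Sprague Dawley rats had been hybridised to 14 Affymetrix arrays, 1 muscle per array, with or without tenotomy, the cutting of a muscle's tendon, which takes the load off the muscle; the labels describe the result as immobilization. There were 6 short-term tenotomized muscles (1 week, 2 rats; 2 weeks, 2 rats; 3 weeks, 1 rat; 4 weeks, 1 rat), 4 long-term tenotomized muscles (6 weeks, rats 61 and 62; 16 weeks, 1 rat; 22 weeks, 1 rat) and 4 control muscles (replicate 1 from rat 62, replicate 4 from rat 61 and replicates 2 and 3 from 1 further rat each). Every tenotomized muscle was a right one and every control a left one, so leg and tenotomy cannot be told apart. The controls of rats 61 and 62 came from animals whose right soleus had been tenotomized for 6 weeks, the labels do not say what was done to the other 2 rats, and the short-term muscles came from rats with no control array. The labels give no age, so age and cohort cannot be told apart from the short-term group either. Signals are the authors' MAS5 intensities on a linear scale, shifted here so that all arrays have the same median, and differences are on the log2 scale.

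As background, the Z-disc anchors the barbed ends of actin filaments through alpha-actinin, while titin runs from the Z-disc to the M-band, where myomesins crosslink the thick filaments. Tropomyosin and nebulin lie along the thin filament, and capping proteins hold its length at both ends. The soleus is a slow postural muscle, and several of these proteins exist in slow and fast isoforms, so that their genes also follow fibre type.

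The labelled tissue was checked against 6 defining markers of skeletal muscle fibres, Acta1 among them. Their summed signal ranged from 41100 to 64120 on short-term arrays, from 48721 to 62156 on long-term arrays and from 43689 to 56930 on controls, and none of the 6 passed the test between short-term and control muscle. Markers of other cells moved with the short-term group. The 6 fibroblast genes summed to between 23624 and 39594 on short-term arrays, against 3584 to 13205 on long-term and 8389 to 11213 on control arrays, and 5 of the 6 were higher in short-term than in control muscle. The 6 macrophage genes summed to 1316 to 3392 on short-term arrays, 276 to 890 on long-term arrays and 429 to 850 on controls, again with 5 of 6 higher, although Itgam was at the floor on 2 short-term, 3 long-term and 3 control arrays. Of 7 smooth muscle and pericyte genes, 2 were higher, with sums of 2027 to 4950 on short-term, 2247 to 2686 on long-term and 2040 to 2624 on control arrays. The 3 endothelial genes measured summed to 1168 to 2291 on short-term, 1594 to 1940 on long-term and 1500 to 1825 on control arrays, and 1 was lower in short-term muscle. Cardiac genes, of which Nppa was at the floor on 5 short-term, 2 long-term and 2 control arrays, summed to at most 1142 on short-term, 1424 on long-term and 1337 on control arrays, and of the 4 tested 2 were higher in short-term muscle, one of them Tnnt2, which developing skeletal muscle also makes, and 1 was lower. The ratio of 3′ to 5′ Gapdh signal, a sign of RNA integrity, had medians of 1.26 on short-term, 1.48 on long-term and 2.08 on control arrays, whereas that of beta-actin ran the other way, with medians of 2.47 on short-term, 2.09 on long-term and 1.80 on control arrays. The deposited signal of the poly-A spike controls ran from 170 to 482 on short-term, 114 to 189 on long-term and 93.7 to 150 on control arrays. Short-term and control arrays did not overlap in this measure. The part of these differences in the changes below was not tested, and in whole muscle fewer cells of a type and less RNA per cell cannot be told apart.

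**Figure D1:**
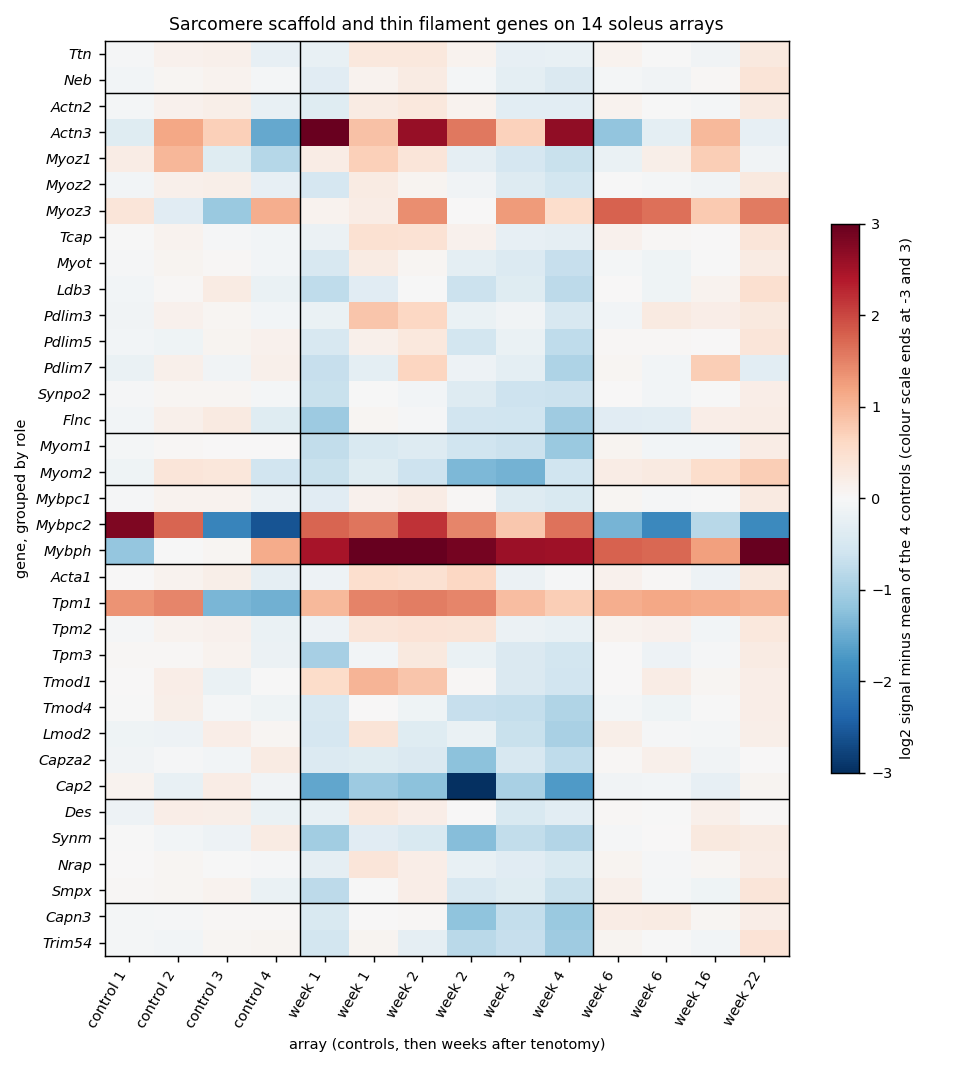
Log2 signal of 35 sarcomere genes on 14 arrays, each minus the gene's mean over the 4 controls (colour, ending at -3 and 3); columns are the controls and then the tenotomized muscles by week, and rows are grouped by role. Mybph is red on every tenotomized array, Cap2 is blue on all 6 arrays of weeks 1 to 4, and Mybpc2 and Tpm1 divide the 4 controls into a high and a low pair.

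Between short-term and control muscle, 2 of 35 genes rose, Mybph and Actn3, and 10 fell: Cap2, Myom2, Synm, Myom1, Capza2, Capn3, Trim54, Ldb3, Tmod4 and Synpo2 (limma, Benjamini-Hochberg adjusted p under 0.05). Over all genes tested 17.9% were called higher and 26.6% lower. With the scaling used here the share of the scaffold genes that fell, 28.6%, was near the background and the share that rose was 5.71%. Their median log2 change was -0.20, beside -0.12 for all 11062 genes, and the median gene's shift is carried by every change given here. Relative to that shift, the called changes ran from -1.47 (Cap2) to 3.33 (Mybph). Groups that do not overlap are named below gene by gene, and the share of all genes with such groups was not counted. In short-term muscle the arrays also scattered more: the SD of the log2 signal was larger than in long-term muscle for 34 of the 35 genes and larger than in control muscle for 29, beside 63.3% and 69.6% of all 11062 genes. The short-term group spans weeks 1 to 4. Scaling shifted its arrays by -0.26 to 0.43 on the log2 scale, long-term arrays by -0.29 to 0.16 and controls by -0.35 to 0.16. The part of time and of scaling in this scatter was not tested.

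**Figure D2:**
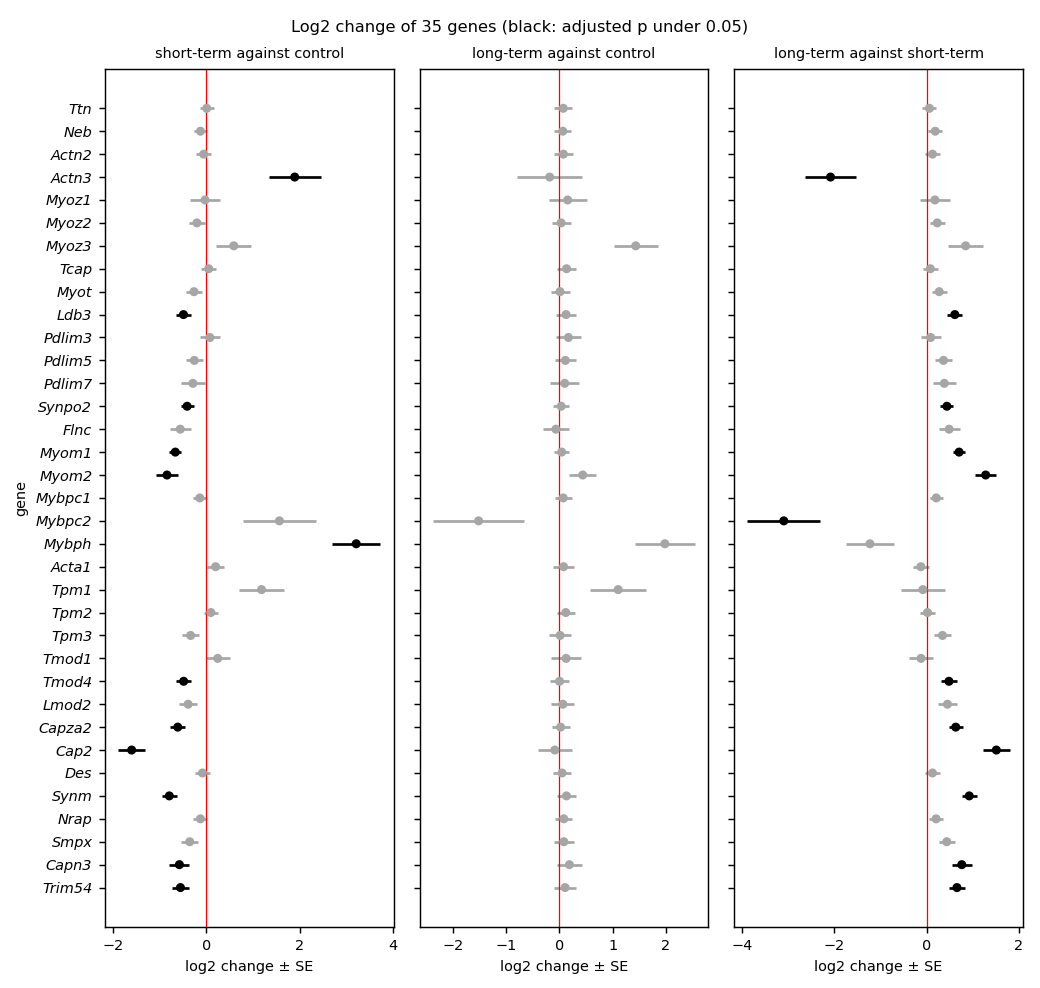
Log2 change of 35 genes with its standard error (x axis, a separate scale per panel) in short-term against control, long-term against control and long-term against short-term muscle; black points passed an adjusted p of 0.05. The first panel has 12 black points, the second none and the third 12.

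The giant scaffolds did not pass the test. Ttn, which encodes titin, the elastic filament of the sarcomere, had signals of 7403 to 11068 (median 8574) on short-term arrays, against 8646, 9673, 9831 and 7398 on controls, a log2 change of 0.01 ± 0.15 (SE; adjusted p = 0.96). Neb, for nebulin, lay between 5206 and 8259 (median 6252) in short-term muscle, against 6561, 7239, 7503 and 6687 in controls, a change of -0.12 ± 0.15 (adjusted p = 0.51). Both genes' groups overlapped.

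Of the 13 Z-disc genes, 1 rose and 2 fell. Actn3, the alpha-actinin of fast glycolytic fibres, had signals of 111 to 535 (median 311) on short-term arrays, against 53.7, 155, 114 and 23.7 on controls. Its log2 change was 1.90 ± 0.56, a 3.72-fold difference (adjusted p = 0.013), and the groups overlapped because control replicates 2 and 3 reached the lower short-term arrays. Without control replicate 4, the lowest array, the change was 1.38 and the call was lost. Ldb3, a PDZ and LIM protein that binds alpha-actinin, had 3451 to 5883 (median 4251) in short-term muscle, against 5615, 6099, 7065 and 5221 in controls, and fell by 0.49 ± 0.16 (adjusted p = 0.025). Synpo2, an actin-bundling partner of filamin at the Z-disc, had 3600 to 5680 (median 4071) in short-term muscle, against 5572, 6001, 5950 and 5504 in controls, and fell by 0.41 ± 0.14 (adjusted p = 0.028). Both genes' groups overlapped at the top of the short-term range. Ldb3 lost its call without short-term replicates 1 or 6 or control replicates 2 or 3 (-0.47 to -0.40), Synpo2 without short-term replicates 1, 5 or 6 or control replicates 1, 2 or 3 (-0.42 to -0.35), and both lost it when arrays were put on a common trimmed mean (-0.32 for Ldb3 and -0.24 for Synpo2).

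The other 10 Z-disc genes did not pass. Actn2, the alpha-actinin found in all fibres, changed by -0.05, the titin cap gene Tcap by 0.05, and Pdlim3, an actinin-associated LIM protein, by 0.08. Myoz1, Myoz2 and Myoz3, which encode calcineurin-binding proteins of the Z-disc, had changes of -0.02, -0.20 and 0.59. Myot, Pdlim5 and Pdlim7, for myotilin and a pair of PDZ and LIM scaffolds, had -0.26, -0.25 and -0.28. Flnc, the muscle filamin, was nearest to the threshold at -0.55 ± 0.23 (adjusted p = 0.057), with 2157 to 4741 (median 3043) in short-term muscle, against 4360, 5112, 5496 and 3587 in controls. Flnc was past it with the rat as a replicate block (-0.61) and without short-term replicates 2 or 3 or control replicate 4 (-0.67 to -0.66). Myot was past it without short-term replicate 2 (-0.36) and Myoz3 without control replicate 4 (0.96).

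Both M-band genes fell. Myom1, the myomesin that ties thick filaments together in all fibres, had 1960 to 3238 (median 2748) on short-term arrays, against 4082, 4377, 4283 and 4268 on controls, which did not overlap; it fell by 0.66 ± 0.13 (adjusted p = 0.00099). The 4 controls of Myom1 had an SD of 0.04 on the log2 scale. Myom2, the myomesin typical of fast fibres, had 1419 to 2977 (median 2437) in short-term muscle, against 3484, 4918, 4838 and 2544 in controls, and fell by 0.84 ± 0.23 (adjusted p = 0.0082). Here the fourth control lay among the short-term arrays. Neither call was lost when any array was left out, but Myom2 was no longer past the threshold after quantile normalization (-0.54).

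The genes whose products bind the thick filament included Mybph, which had the largest rise among the 35 genes. Mybph, myosin binding protein H, had 716, 1762, 4210, 946, 759 and 751 on the short-term arrays of weeks 1, 1, 2, 2, 3 and 4, against 57.2, 127, 135 and 280 on controls. Every short-term value was above every control value, and the difference was 3.21 ± 0.52 on the log2 scale, or 9.27-fold (adjusted p = 0.00022). Mybpc1, the slow isoform of myosin binding protein C, changed by -0.14 ± 0.15 (adjusted p = 0.47). Mybpc2, the fast isoform, had 449, 411, 601, 370, 237 and 414 on the same short-term arrays, against 941, 454, 34.1 and 22.5 on controls. Control replicate 1 was above all short-term arrays, control replicate 2 among them and the other pair far below them, and a difference of 1.57 ± 0.79 did not pass (adjusted p = 0.12). Without control replicate 1 it was 2.50 and without control replicate 2 it was 2.15, both past the threshold.

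**Figure D3:**
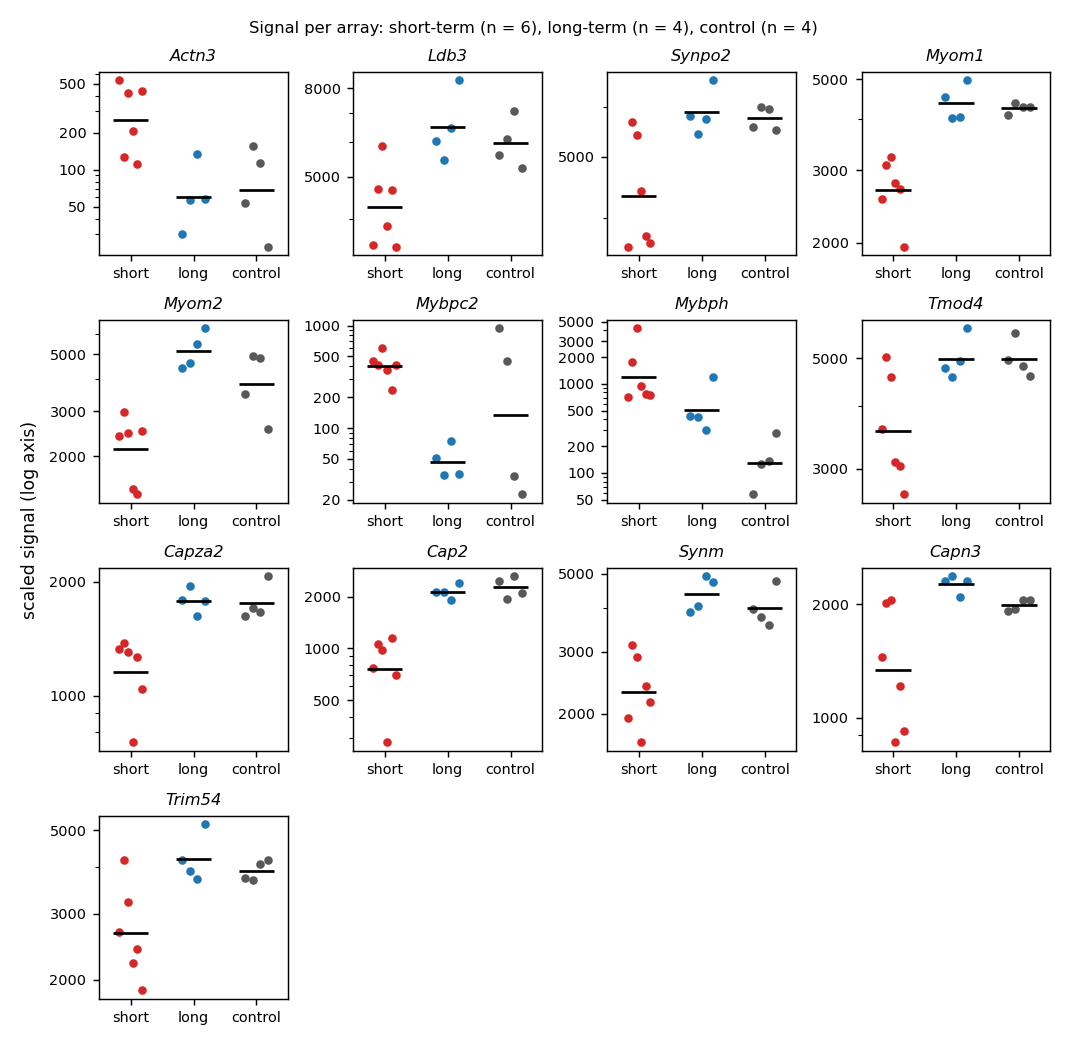
Scaled signal per array (log axes, which differ between panels) of the 13 genes past an adjusted p of 0.05 in short-term against control or long-term against short-term muscle; points are arrays (short-term n = 6, long-term n = 4, control n = 4) and bars are geometric means. Short-term points lie below both other groups for Myom1, Capza2, Cap2 and Synm, and Mybph runs from 57.2 on a control to 4210 at week 2.

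Of the 9 thin filament genes measured, none rose and 3 fell, Cap2, Capza2 and Tmod4. Cap2, a cyclase-associated protein that acts on actin filament turnover, had 770, 1065, 978, 283, 1154 and 701 on the short-term arrays of weeks 1, 1, 2, 2, 3 and 4, against 2466, 1950, 2639 and 2115 on controls. The groups did not overlap, and Cap2 fell by 1.59 ± 0.29, which is 3.02-fold (adjusted p = 0.00051). Its other probe sets gave -1.66 and -1.38, both past the threshold in a fit over all 20334 probe sets tested. Capza2, a subunit of the barbed-end capping protein, had 752 to 1375 (median 1282) on short-term arrays, against 1622, 1703, 1665 and 2068 on controls, again without overlap, and fell by 0.61 ± 0.16 (adjusted p = 0.0054). After quantile normalization the Capza2 change was -0.32 and no longer past the threshold. Tmod4, a tropomodulin that caps pointed ends in skeletal muscle, had 2663 to 5020 (median 3349) on short-term arrays, against 4965, 5616, 4826 and 4594 on controls, with overlap, and fell by 0.48 ± 0.16 (adjusted p = 0.025). This call was lost without short-term replicates 4, 5 or 6 or control replicates 1 or 2 (-0.48 to -0.40).

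The other 6 thin filament genes, those of skeletal actin, the tropomyosins, Tmod1 and Lmod2, did not pass the test. Acta1, the skeletal actin, had 7228 to 12579 (median 9614) in short-term muscle, against 8204, 8777, 9183 and 6775 in controls, a change of 0.20 ± 0.17 (adjusted p = 0.36). Tpm2, the beta tropomyosin, changed by 0.10, Tpm3, the slow tropomyosin, by -0.33, and Lmod2, a leiomodin that lengthens filaments, by -0.39. Tmod1, the other tropomodulin, changed by 0.25. Tpm3 was past the threshold without short-term replicate 3 (-0.46) and Lmod2 without short-term replicate 2 (-0.54). For Tpm1, the tropomyosin of fast and cardiac fibres, the short-term arrays had 3802 to 6627 (median 5380), against 5813, 6280, 884 and 836 on controls. The first pair of controls lay among the short-term arrays and the other pair, as for Mybpc2, below all of them. The Tpm1 change of 1.19 ± 0.48 did not pass (adjusted p = 0.056). Without control replicate 1 it was 1.64 and without control replicate 2 it was 1.67, both past the threshold.

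The same pair of controls, replicates 3 and 4, was also low for some other genes of fast fibres: both lay below control replicates 1 and 2 for 6 of 11 fast fibre genes tested (Atp2a1, Myh2, Mylk2, Tnnc2, Tnni2 and Tnnt3) and for none of 8 slow fibre genes. Casq1, Myh1, Myh4, Myl1 and Pvalb did not divide the controls in this way, nor did Actn3, Myom2 or Myoz3. Myoz1 did, with 1838 and 3093 on control replicates 1 and 2 and the other pair below them, down to 866. Its short-term arrays, at 985 to 2584, overlapped both pairs. Tmod1 and Tmod4 had the same order of controls with smaller gaps. Myh2, a fast myosin heavy chain, had 4116 to 9906 on short-term arrays, against 7224, 8424, 987 and 574 on the 4 controls. Tnnt3 and Tnni2, fast troponin subunits, had 411 and 156, and 376 and 140, on those 2 controls, while control replicates 1 and 2 had 4850 and 5870 for Tnnt3 and 4914 and 6138 for Tnni2. The summed signal of 11 fast fibre genes ranged from 33223 to 56899 on short-term arrays, from 42620 to 47524 on long-term arrays and from 22500 to 55617 on controls. Of these 11 genes, 6 were higher and 2 lower in short-term than in control muscle (median 0.98), with Myh4 at 2.75, Tnnt3 at 2.00, Tnni2 at 1.98 and Myh2 at 1.55. The 2 lower ones, named after their values were seen, were the fast myosin gene Myh1 (-1.33) and the fast light chain kinase gene Mylk2 (-0.81). Of 8 slow fibre genes, 1 was lower, the slow calsequestrin gene Casq2 at -1.0, and none was higher (median -0.06). How far the low pair of controls bears on the changes of Actn3, Mybpc2 and Tpm1 was not tested beyond leaving out single arrays.

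**Figure D4:**
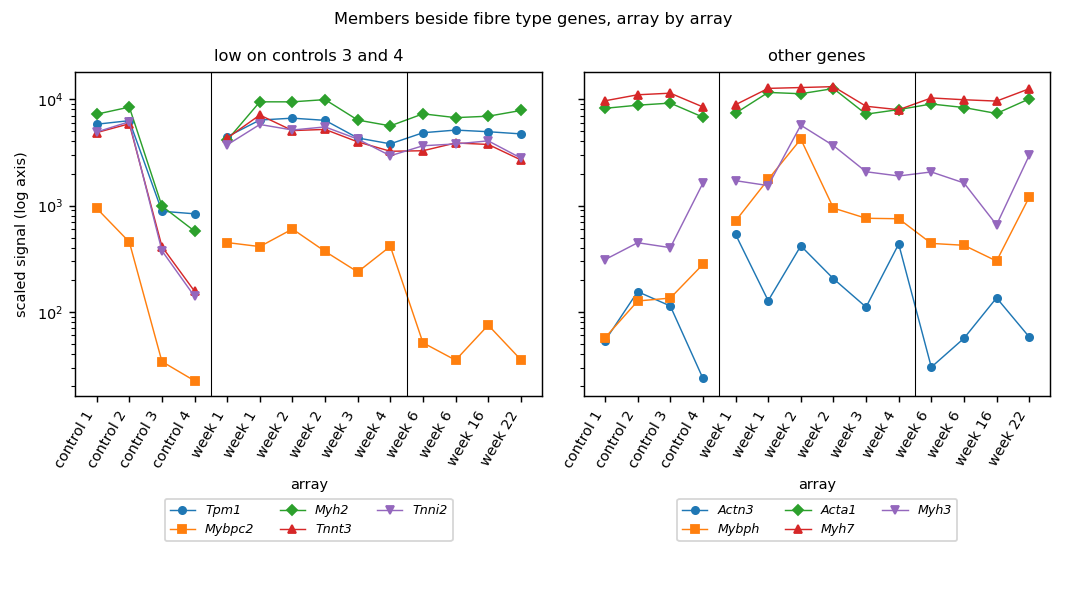
Scaled signal (log axis) on the 14 arrays, controls 1 to 4 and then the tenotomized muscles by week. Tpm1, Mybpc2, Myh2, Tnnt3 and Tnni2 (left) drop on controls 3 and 4, whereas Acta1 and Myh7 (right) stay near the other arrays; Mybph and Myh3 peak on the same array at week 2.

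Promoter windows, 250 bases before to 50 after the annotated start, were available from RefSeq (build GRCr8) for 30 of the 36 genes. The start of a window need not be the outer end of the annotated gene: it lay 1659 bases inside the gene for Ldb3, 1588 for Capn3 and 246 for Tpm1, and at the outer end for Mybpc2 and Acta1. The 150 bases before the start are printed for 5 genes chosen after their values were seen: Tpm1 and Mybpc2, low on the same 2 controls; Capn3 and Ldb3, which fell; and Acta1, which did not pass. Capitals mark a TATA box (TATAAA), an M-CAT element (CATTCC), a MEF2 box or a CArG box found on either strand. The windows are Tpm1 at chr8:76543416-76543565, Mybpc2 at chr1:104154102-104154251, Ldb3 at chr16:9924680-9924829 and Acta1 at chr19:68784195-68784344, all on the minus strand, and Capn3 at chr3:127861440-127861589 on the plus strand, each written 5′ to 3′ on the gene's strand.
Tpm1: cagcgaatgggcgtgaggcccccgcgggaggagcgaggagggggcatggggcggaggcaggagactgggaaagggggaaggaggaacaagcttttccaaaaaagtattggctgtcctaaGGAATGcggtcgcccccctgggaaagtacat
Mybpc2: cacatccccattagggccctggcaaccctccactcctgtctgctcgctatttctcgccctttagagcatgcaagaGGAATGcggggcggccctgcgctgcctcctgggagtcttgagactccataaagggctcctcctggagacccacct
Capn3: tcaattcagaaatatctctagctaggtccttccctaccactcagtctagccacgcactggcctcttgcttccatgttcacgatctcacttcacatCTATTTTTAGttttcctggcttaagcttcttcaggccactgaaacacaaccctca
Ldb3: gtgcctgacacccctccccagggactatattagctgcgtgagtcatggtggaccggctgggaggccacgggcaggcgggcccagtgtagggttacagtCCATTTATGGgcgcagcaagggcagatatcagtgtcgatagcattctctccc
Acta1: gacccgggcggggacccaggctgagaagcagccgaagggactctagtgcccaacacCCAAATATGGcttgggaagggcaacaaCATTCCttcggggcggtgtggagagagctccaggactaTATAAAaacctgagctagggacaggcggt

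The stretches of Tpm1 and Mybpc2 each hold an M-CAT element on the opposite strand, a sequence read by TEAD factors in muscle promoters. Capn3 holds a MEF2 box and Ldb3 a CArG box, the sequence that serum response factor binds, while Acta1 holds a CArG box, an M-CAT element and a TATA box. In the full windows, searched on both strands and with each motif counted on its own even where matches overlap, an M-CAT element was in 7 of the 30 genes and in 14.2% of all 33469 rat windows. A MEF2 box was in 4 genes (Capn3, Myoz2, Smpx and Ttn) and 0.565% of all windows, and a CArG box in 3 (Acta1, Actc1 and Ldb3) and 1.64%. TATAAA was in 2 genes and 14.2% of windows, the E-box CANNTG in 23 and 72.1%, and the GC box GGGCGG in 14 and 33.1%. Genes with a MEF2 or CArG box included ones that fell (Capn3, Ldb3) and ones that did not pass (Ttn, Myoz2, Smpx, Acta1).

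Among the 4 genes of intermediate filaments and attachments, 1 fell. Synm, whose product synemin links desmin filaments to the Z-disc and the membrane, had 1660 to 3141 (median 2280) in short-term muscle, against 3979, 3755, 3571 and 4766 in controls, with no overlap. It fell by 0.79 ± 0.17 (adjusted p = 0.0015), and the call was kept under every scaling tried and with each array left out. Des, for desmin itself, changed by -0.08 ± 0.15 (adjusted p = 0.7), Nrap, an anchor of actin bundles at the muscle ends, by -0.12, and Smpx, a small costamere protein, by -0.35, which passed without short-term replicate 3 (-0.46).

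Both genes of protein turnover in the sarcomere fell. Capn3, the muscle calpain that is bound to titin, had 861 to 2054 (median 1334) on short-term arrays, against 1924, 1946, 2053 and 2055 on controls, and fell by 0.57 ± 0.21 (adjusted p = 0.039). Trim54, a ubiquitin ligase of the sarcomere in the MuRF family, had 1874 to 4160 (median 2551) on short-term arrays, against 3726, 3684, 4077 and 4164 on controls, and fell by 0.55 ± 0.18 (adjusted p = 0.022). The highest short-term arrays of both genes reached the controls. Capn3 lost its call without short-term replicates 4, 5 or 6 or any 1 of the 4 controls (-0.59 to -0.45), and Trim54 without control replicate 3 (-0.53) or control replicate 4 (-0.52).

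The count depended on the scaling. Of the 12 genes, 5 were called in the same direction under the other 5 scalings tried: Actn3 and Mybph higher, and Myom1, Cap2 and Synm lower. With each array left out in turn, 6 kept their call: Mybph, Myom1, Myom2, Capza2, Cap2 and Synm. Quantile normalization gave 5 higher and 7 lower and a common trimmed mean 3 higher and 5 lower, whereas the deposited scale and a common median over all probe sets each gave 2 higher and 18 lower. Over all genes and both directions, quantile normalization called 4481 of 11050 and the trimmed mean 4596 of 11086. The deposited scale called 4335 of 11067 and the common median over all probe sets 5741 of 11062, beside 4914 of 11062 in the main fit. For 11 of the genes that did not pass, with changes of at most 0.20 in size, the sign itself depended on the scaling: Ttn, Neb, Actn2, Myoz1, Tcap, Pdlim3, Mybpc1, Acta1, Tpm2, Des and Nrap. Under the other scalings their changes reached 0.37 in size, and 4 of the 11 were past the threshold under at least 1 scaling. Many of the genes are also close to the top of the array's range: for 14 of the 35 the median signal was at least 50% of the brightest signal on its array, and whether changes of such genes are understated was not tested.

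The weeks with 2 arrays each were compared with the controls in a second fit. At 1 week, 2 genes were higher, beside 9.44% of all genes, and 2 lower, beside 14%. These were Mybph (3.13 ± 0.64, adjusted p = 0.0068) and Tmod1 (0.79 ± 0.22, adjusted p = 0.027), and Cap2 (-1.33 ± 0.37, adjusted p = 0.027) and Myom1 (-0.60 ± 0.14, adjusted p = 0.013). Tmod1, the tropomodulin shared with heart and red cells, had 1174 and 1623 at week 1, 1430 and 822 at week 2, 594 at week 3 and 539 at week 4, against 807, 918, 694 and 785 on controls. Week 1 was above all controls and weeks 3 and 4 below all of them. Calls at 1 week rested on single arrays: without short-term replicate 1 Mybph alone was called (Tmod1 1.03, Cap2 -1.10, Myom1 -0.46), without short-term replicate 2 Mybph (2.48), Tmod1 (0.56) and Cap2 (-1.56) lost theirs, and without control replicates 1 or 3 so did Tmod1 (0.80 and 0.73) and Cap2 (-1.29 and -1.26). At 2 weeks, 2 genes were higher, beside 16.2% of all genes, and 5 lower, beside 21.8%. Mybph (3.96 ± 0.64, adjusted p = 0.0013) and Actn3 (2.09 ± 0.73, adjusted p = 0.044) were higher, and Cap2 (-2.11), Myom2 (-0.99), Synm (-0.87), Capza2 (-0.83) and Myom1 (-0.50) were lower. Of these 5, 4 lost their call without short-term replicate 4, a 2-week array, all but Cap2: Myom2 was then at -0.62, Synm at -0.47, Capza2 at -0.43 and Myom1 at -0.39. Actn3 lost its call at 2 weeks without either 2-week array (1.57 and 2.60), either 6-week array, or control replicates 1 or 4 (1.97 and 1.58). Calls were also gained at 2 weeks: Acta1 (0.54) and Tpm2 (0.39) higher and Trim54 (-0.55) lower without either 1-week array. Tpm1 (1.99) was called higher without control replicate 2. Leaving out a 2-week array left 1 array for that week. The genes gained then were Capn3 (-1.21), Trim54 (-0.82), Tmod4 (-0.69) and Ldb3 (-0.63) without short-term replicate 3, and Tmod1 (0.84) without short-term replicate 4. Between 2 weeks and 1 week limma called 0 of 11062 genes, with 1450 at an unadjusted p under 0.05, among them 1 of the 35, Pdlim7 (0.74, adjusted p = 0.29).

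Weeks 3 and 4 have 1 array each and no test. Mybph was at 759 and 751 there, Cap2 at 1154 and 701, and Myom1 at 2706 and 1960, so these genes stood outside the control range at both weeks. Myom2 was lowest at week 3, at 1419, beside 2510 at week 4. For Capn3 the 2 arrays had 1219 and 921, against 1924 to 2055 on controls.

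None of the 35 scaffold genes passed the test between long-term and control muscle, where 0% of all genes were called higher and 0% lower: limma called 0 of 11062 genes, with 244 at an unadjusted p under 0.05 and 0 called under each of the alternatives tried. The median change of the 35 genes was 0.08, beside -0.01 for all genes, and single changes ran from -1.52 (Mybpc2) to 1.98 (Mybph). The 10 genes that had fallen in short-term muscle ranged from -0.09 (Cap2) to 0.44 (Myom2), with standard errors of 0.14 to 0.32. At 6 weeks against control, likewise, 0% were called higher and 0% lower (0 of 11062 genes, 472 at an unadjusted p under 0.05); 2 genes were called with no filter on dim genes and 25 without control replicate 4, none of them one of the 35. A p that misses the threshold with 4 arrays a group does not show that the values are equal.

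Mybph and Myoz3 had an unadjusted p under 0.05 in that comparison. Mybph had 440, 423, 301 and 1198 in long-term muscle at 6, 6, 16 and 22 weeks, against 57.2, 127, 135 and 280 in controls, a difference of 1.98 ± 0.57 with all long-term arrays above all controls (adjusted p = 1). Myoz3, a calsarcin of fast fibres, had 1266, 1168, 645 and 1095 in long-term muscle, against 483, 293, 173 and 796 in controls, a difference of 1.44 ± 0.41 (adjusted p = 1). Its week 16 array lay below the highest control. Tpm1 was at 4833, 5120, 4942 and 4715 in long-term muscle, against 5813, 6280, 884 and 836 in controls. Mybpc2 was at 51.2, 35.2, 75.1 and 35.5 in long-term muscle, against 941, 454, 34.1 and 22.5 in controls. The long-term arrays lay near the high pair of controls for Tpm1 and near the low pair for Mybpc2.

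Within rats 61 and 62, whose 2 legs were both measured, 16 genes were higher and 1 lower in the leg tenotomized for 6 weeks in both rats, and 18 differed in sign. For 29 genes the difference was within 0.5 in both rats, and some of the signs rest on very small differences. Neb, the 1 lower gene, differed by -0.003 in rat 61 and -0.005 in rat 62. Among the 16 higher genes, Ttn differed by 0.36 in rat 61 and 0.01 in rat 62, and Mybpc1 by 0.24 and 0.001. Signs were not counted over all genes tested, so these counts do not show a direction particular to the scaffold genes. Mybph was higher by 0.65 in rat 61 and 2.89 in rat 62, Myoz3 by 0.67 and 1.27, and Myom2 by 0.80 and 0.41. Mybpc2, Tpm1 and Myoz1, which divided the controls, differed in sign between the rats. Mybpc2 differed by 1.19 in rat 61 and -4.74 in rat 62, Tpm1 by 2.53 and -0.18, and Myoz1 by 0.64 and -0.05. Actn3, which did not divide them, differed by 0.35 and 0.07. These are values of 2 animals with no test.

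Set against short-term muscle, long-term muscle had 10 genes higher, where 26.2% of all genes were, and 2 lower, where 17.4% were. This comparison uses the same 6 short-term arrays as the one with the controls, so its calls are not independent of those. The genes higher were Cap2, Myom2, Synm, Capn3, Myom1, Trim54, Capza2, Ldb3, Tmod4 and Synpo2. The median change of all 35 genes was 0.27, beside 0.12 for all genes tested.

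Cap2 had 2124, 2135, 1929 and 2406 in long-term muscle, against at most 1154 in short-term muscle, a difference of 1.51 ± 0.29 (adjusted p = 0.00081). Myom2 had 4434, 4626, 5479 and 6317 in long-term muscle, against at most 2977 in short-term muscle, a difference of 1.28 ± 0.23 (adjusted p = 0.00052), and its values at weeks 16 and 22 were above all 4 controls. Synm had 3882, 4056, 4913 and 4726 in long-term muscle, against at most 3141 in short-term muscle (0.92 ± 0.17, adjusted p = 0.00052). In these genes, and in Myom1, Capza2 and Capn3, every long-term array was above every short-term one. The share of all genes that separated in this way was not counted.

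Myom1 had 4512, 4028, 4046 and 4968 in long-term muscle, against at most 3238 in short-term muscle (0.70 ± 0.13, adjusted p = 0.00068). Capza2 had 1794, 1944, 1628 and 1776 in long-term muscle, against at most 1375 in short-term muscle (0.63 ± 0.16, adjusted p = 0.0044). Capn3 had 2315, 2376, 2088 and 2304 in long-term muscle, against at most 2054 in short-term muscle (0.76 ± 0.21, adjusted p = 0.0094). The Capn3 long-term values also lay above all 4 controls, the highest of which was 2055, but the difference from control was 0.19 ± 0.23. Trim54 differed by 0.66, Ldb3 by 0.61, Tmod4 by 0.48 and Synpo2 by 0.44 with overlapping groups. Of the 10, 6 were called higher under the other 5 scalings as well, Tmod4 lost its call without short-term replicates 4, 5 or 6 or long-term replicates 3 or 4 (0.40 to 0.49), and Synpo2 lost it without long-term replicate 4 (0.38). With 1 array left out, Myoz3 (0.84 to 1.06), Myot (0.37), Pdlim5 (0.48), Pdlim7 (0.57), Flnc (0.59 to 0.61), Tpm3 (0.47), Lmod2 (0.60) and Smpx (0.50 to 0.54) were also called higher, in all but Myoz3 by leaving out short-term replicate 2 or 3.

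The 2 lower genes were isoforms of fast fibres. Actn3 had 30.2, 56.4, 136 and 58.2 in long-term muscle, against 111 to 535 (median 311) in short-term muscle, and differed by -2.08 ± 0.56 (adjusted p = 0.0074). Mybpc2 had at most 75.1 in long-term muscle, against at least 237 in short-term muscle, and differed by -3.09 ± 0.79, an 8.52-fold fall (adjusted p = 0.0053). Both calls held under every scaling and with each array left out. Mybph had a geometric mean of 509 in long-term muscle, against 1192 in short-term muscle, a difference of -1.23 ± 0.52 that did not pass (adjusted p = 0.066). Without long-term replicate 4, the week 22 array, it was -1.64 and past the threshold.

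Further probe sets of the same genes did not all follow the one described. Of the 35 genes, 14 had more than 1 probe set, and 30 of the 40 further probe sets were bright enough to test; 10 were higher and 4 lower in short-term than in control muscle, where 16.2% of all 20334 probe sets tested were called higher and 21.7% lower. For Tpm1 all 4 further tested probe sets gave differences of 1.24 to 1.45, of which 2 were called higher (1.24 and 1.45). The called one at 1.24 did not divide the controls, which had 487, 527, 588 and 448. Its short-term arrays, at 684 to 2302, lay above all of them. For Tpm3, 10 of 11 further tested probe sets had a change above 0, and 5 were called higher, by 0.66 to 0.93, while the brightest had -0.33. Synpo2 had 1 further probe set at -1.16, called lower, and 1 at 1.85, called higher. The dimmer probe sets of Flnc (2.62) and Pdlim7 (1.12) were higher, whereas the ones used gave -0.55 and -0.28. Ldb3 had a further probe set at -0.48, called lower, and others at 0.45, -0.29 and 0.78 that did not pass. Which transcripts each probe set detects is not given in the sources used here.

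**Figure D5:**
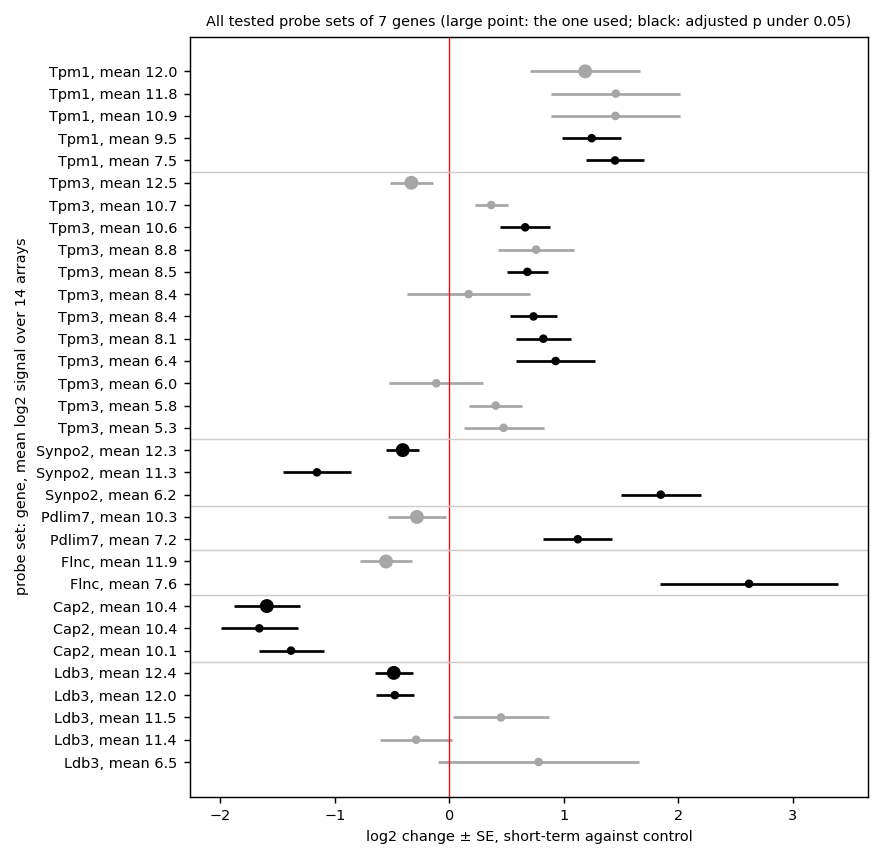
Log2 change with its standard error (x axis) in short-term against control muscle for all tested probe sets of 7 genes, named with their mean log2 signal; the large point is the probe set used and black marks an adjusted p under 0.05. The 3 probe sets of Cap2 lie together below 0 and the 5 of Tpm1 above 0, while those of Synpo2, Flnc and Pdlim7 lie on both sides of 0.

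Other genes of the sarcomere and the actin cytoskeleton gave a background for these values. Of 41 such genes listed, 36 were tested, and between short-term and control muscle 8 were higher and 6 lower, with a median of -0.20. Palld, an actin-bundling protein of many cell types, rose by 2.21 ± 0.59 (adjusted p = 0.0067). Actn4, an alpha-actinin of non-muscle cells, rose by 1.18 (adjusted p = 0.0064) and Tmod2, a tropomodulin best known from neurons, by 1.08 (adjusted p = 0.015). Tln2, the talin that attaches integrins to actin in muscle, fell by 1.08 (adjusted p = 0.0007). The fibroblast and macrophage sums given above moved with the same groups, and a link between them and these genes was not tested. Of 8 genes of developing muscle, 4 rose and none fell in short-term muscle (median 1.36): Myh8 by 3.15, Tnnt2 by 2.55, Myh3 by 2.16 and Myl4 by 1.76, the myosin and troponin isoforms of immature fibres. None of the genes in these lists was called between long-term and control muscle.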

How the data were processed

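The authors deposited 1 linear intensity per probe set, a MAS5 signal per the submitters' processing notes; the scaling target, software version, detection calls and genome build are not given in the sources used here. The 14 arrays are not on a common scale (their median deposited signals run from 29.8 to 49.3), and the number of arrays limits the precision. Signals were taken to log2 and arrays shifted to a common median over 31042 probe sets, without the manufacturer's 57 controls; 20826 of these carry 1 gene symbol, 436 several and 9780 none. The probe set with 1 symbol and the highest mean stood for each of 14217 genes. The 11062 genes above the pooled 40th percentile (signal 22.0) on at least 4 arrays were tested, after the arrays were shifted again to a common median over these genes, since a shift over all probe sets moved the median gene by -0.34 between short-term and control muscle. With the second shift the median gene moved by -0.12 (short-term against control), -0.01 (long-term against control) and 0.12 (long-term against short-term). Values under the pooled 25th percentile (9.69) were raised to it; no value of the 35 genes was there.

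Comparisons used limma 3.58.1 (R 4.3.3), all on log2 values (lmFit and eBayes with an intensity trend, 1 fit of all arrays with a mean per group, and a second with a mean per time point), with Benjamini-Hochberg adjustment over all genes tested and a threshold of 0.05; the code was tested on simulated data. All 36 genes are named by the rule; values per array are given for those past the threshold, and up to 4 examples per other list, the largest called changes. The genes and lists were chosen with earlier results of these data known. Replicate numbers follow the order of deposit and pair nothing, but rats 61 and 62 each gave a control and a 6-week muscle: deviations of their 2 arrays from the group means correlated at 0.41 and 0.22 over 11062 genes, so a fit with the rat as a random replicate block was an alternative. The other alternatives were 5 other scalings, no floor, an offset of 16 in its place, no filter, the mean of a gene's probe sets, no variance trend, only the groups compared, and each array left out in turn.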

Additional observations from a re-analysis of the deposited data

Results flagged for a closer look

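Of 105 sets of values tested for a value far from the rest (35 genes in 3 groups), 2 held one, or 1.90%, where chance alone gives about 1 in 20. Cap2 was 283 on short-term replicate 4, a 2-week array, and its nearest neighbour was 701. Pdlim5 was 7693 on long-term replicate 4, the week 22 array, and its nearest neighbour was 6164.

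The probe sets that the comparisons did not use held 10 that were higher in short-term than in control muscle, on the log2 scale and past an adjusted p of 0.05 in limma over 20334 probe sets, of which 16.2% were called higher. They were 1 of Flnc (2.62), 1 of Pdlim7 (1.12), 1 of Synpo2 (1.85), 2 of Tpm1 (1.24 and 1.45) and 5 of Tpm3 (0.66, 0.68, 0.73, 0.82 and 0.93). The Synpo2 one had 68.9 to 310 on short-term arrays, against 30.3, 49.4, 38.6 and 41.3 on controls, without overlap. The Pdlim7 one had 144 to 527 on short-term arrays, against 110, 87.5, 130 and 110 on controls, also without overlap.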

How the results depend on the processing

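The counts of scaffold and thin filament genes called depended on the scaling most. For short-term against control muscle (12) the deposited scale and a common median over all probe sets each gave 20, and leaving out an array gave 8 to 15. For long-term against short-term muscle (12) these scalings gave 22 and 26, and leaving out an array 11 to 18. Over all genes they called 3982 of 11067 and 6023 of 11062 in that comparison, beside 4818 of 11062 in the main fit. At 1 week (4) they gave 10 and 13, while no filter and the mean of all probe sets each gave 2; without short-term replicate 1 the count was 1, without short-term replicates 3 or 4 it was 7, and without control replicates 1 or 3 it was 2 (range 1 to 7). At 2 weeks (7) they gave 21 and 12, quantile normalization 12, a trimmed mean 11 and no filter 4, and leaving out an array gave 3 (short-term replicate 4) to 10. The long-term and 6-week comparisons with control gave 0 under all of these. Over all genes, the deposited scale and the common median called 2325 of 11067 and 3864 of 11062 at 1 week, beside 2589 of 11062 in the main fit. At 2 weeks they called 5153 of 11067 and 5257 of 11062, beside 4209 of 11062 in the main fit. Quantile normalization split the calls of short-term against control muscle into 5 higher and 7 lower and those of long-term against short-term muscle into 8 higher and 4 lower; a trimmed mean gave 3 and 5, and 8 and 3. With the rat as a replicate block, which allows for the paired legs, the counts were 13, 13, 4 and 7 in the order above, and 0 for long-term and for 6 weeks against control; beside Flnc, Smpx was called (long-term against short-term, 0.45).

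Some single values changed sign where at least 1 of the values compared was past the threshold. In short-term against control muscle these were the mean of all probe sets of Synpo2 (0.13) and further probe sets of Ldb3 (0.45 and 0.78), Pdlim7 (1.12), Synpo2 (1.85), Flnc (2.62) and Tpm3 (0.66, 0.68, 0.73, 0.82 and 0.93). In long-term against short-term muscle they were probe sets of Ldb3 (-0.42 and -0.87), Pdlim7 (-1.09), Synpo2 (-1.28) and Tpm3 (-0.88 and -0.98). The cause was not tested.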

Other observations

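The 5 probe sets that Actc1 shares with Acta2, the smooth muscle actin, cannot be assigned to either gene. The brightest had 1347, 1372, 8775, 3105, 2718 and 2542 on short-term arrays, 2821, 3198, 3102 and 6163 on long-term arrays, and 1777, 2734, 1989 and 2404 on controls. None of the 4 tested passed in short-term against control muscle, with changes from -0.30 to 0.54. Short-term replicate 3, a 2-week array, was the highest for each of these 4 probe sets, and Mybph (4210) and Myh3, the embryonic myosin heavy chain (5692), were also highest there. Acta2 had a probe set of its own, with geometric means of 406 on short-term, 354 on long-term and 404 on control arrays.

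Myoz3 was at 796 on control replicate 4 and at 173 on control replicate 3, although both of these controls were low for Tpm1, Mybpc2 and the fast troponins.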
